A study of Mus musculus with 34 samples.

Results

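The promoters described here are those of protein-coding genes on chromosomes 1 to 19 that carried an H3K4me3 peak after LPS. The peak was in bone marrow-derived dendritic cells (BMDCs) of CTCF-WT genotype (WTLPS), of CTCF-KO genotype (KOLPS) or in both. A promoter was the start site of the gene's longest transcript with 2.5 kb on either side, and it was counted when a peak overlapped it by at least 1 base. Of 20807 promoters, 11772 (56.6%) had a peak in both lists, 367 (1.76%) had one in WTLPS only, 194 (0.932%) had one in KOLPS only, and 8474 (40.7%) had none in either. Thus 3.02% of the WTLPS promoters (95% Wilson interval 2.73 to 3.34%) had no KOLPS peak, and 1.62% of the KOLPS promoters (1.41 to 1.86%) had no WTLPS peak.

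BMDCs were grown for 6 days in GM-CSF from marrow of 8-week-old C57BL/6 mice carrying a tamoxifen-inducible Cre recombinase (CreER). CTCF-WT cells carried CreER alone, and CTCF-KO cells carried CreER with both Ctcf alleles floxed. Both were given 4-hydroxytamoxifen on day 1 of culture and CD11c+ cells were selected, so recombination took place during differentiation and the controls had the same Cre and drug. LPS was given at 100 ng/ml for 3 h. The data were 30 peak lists, 1 for each antibody and condition, with 4 input samples that had no list. With 1 list per condition no spread between replicates could be computed, and every interval below covers counting error over promoters only.

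H3K4me3, trimethylation of lysine 4 of histone H3, is laid down by COMPASS-family methyltransferases at the start sites of active genes, and at CpG-rich promoters whether or not they are transcribed. H3K27ac marks active promoters and enhancers. H3K27me3 is the product of Polycomb repressive complex 2. Promoters that carry both H3K4me3 and H3K27me3 are called bivalent and are typical of developmental regulators. CTCF is a zinc finger protein that, with cohesin (of which SMC1 is a subunit), sets the borders of chromatin loops, and p65 (RelA) is the NF-κB subunit that enters the nucleus when Toll-like receptor 4 senses LPS. A peak list records where a mark passed a threshold in a population of cells, so a lower level in every cell and a mark in fewer cells cannot be told apart.

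The single-condition classes differed from one another in promoter CpG content, though they overlapped. In the 1 kb around the start site, the ratio of observed to expected CpG had a median of 0.74 in promoters with a peak in both lists, 0.379 in WTLPS only, 0.588 in KOLPS only and 0.197 in those with neither. A ratio of at least 0.6 was found in 29.2% of WTLPS-only promoters (24.7 to 34%) and in 47.9% of KOLPS-only promoters (41 to 54.9%), against 75.4% in the shared class and 46.8% of all promoters. The 150 bases upstream of 5 start sites illustrate this, written 5′ to 3′ on the strand of the gene in GRCm38 (mm10), outside every annotated exon, with each CG in capitals. Il18 (chr9:50554677-50554826, + strand) and Cxcl9 (chr5:92328080-92328229, − strand) were WTLPS only, and Bace2 (chr16:97356592-97356741, + strand), Kcnq3 (chr15:66286643-66286792, − strand) and Foxc2 (chr8:121116021-121116170, + strand) were KOLPS only.
Il18: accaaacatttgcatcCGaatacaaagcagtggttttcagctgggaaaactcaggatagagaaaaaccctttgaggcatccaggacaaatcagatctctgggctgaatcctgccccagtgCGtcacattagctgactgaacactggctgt
Cxcl9: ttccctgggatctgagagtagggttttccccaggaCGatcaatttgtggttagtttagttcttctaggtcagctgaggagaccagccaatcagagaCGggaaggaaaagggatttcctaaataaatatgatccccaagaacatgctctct
Bace2: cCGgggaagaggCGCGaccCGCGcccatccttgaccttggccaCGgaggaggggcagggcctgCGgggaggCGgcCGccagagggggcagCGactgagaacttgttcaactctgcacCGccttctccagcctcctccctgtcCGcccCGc
Kcnq3: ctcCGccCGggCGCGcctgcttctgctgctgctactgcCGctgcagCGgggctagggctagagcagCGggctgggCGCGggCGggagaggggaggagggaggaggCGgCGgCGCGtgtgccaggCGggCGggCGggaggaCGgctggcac
Foxc2: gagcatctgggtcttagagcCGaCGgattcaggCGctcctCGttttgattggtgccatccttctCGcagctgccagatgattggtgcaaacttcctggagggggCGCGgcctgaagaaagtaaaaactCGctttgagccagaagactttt
The Il18 and Cxcl9 windows each held 2 CpG, whereas those of Foxc2, Bace2 and Kcnq3 held 8, 13 and 18. These 5 are chosen examples and do not stand for every member. A ratio of at least 0.6 was also found at 29.2% of WTLPS-only promoters, and the 47.9% of KOLPS only was near the 46.8% of all promoters.

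Markers of the labelled cell type were first placed in the classes. Of 12 dendritic cell marker promoters, 9 had H3K4me3 in both lists, 1 (Clec9a) in WTLPS only and 2 in neither. Of 12 macrophage and monocyte markers, 8 were shared and 2 (Marco and Ly6c2) were WTLPS only. Neutrophil markers were shared at 4 of 12 and WTLPS only at 1 (Mmp8), while fibroblast markers were shared at 2 of 8 and WTLPS only at 2 (Pdgfrb and Thy1). Mast cell, T and NK cell, B cell and erythroid markers were shared at 2 of 10, 1 of 11, 3 of 8 and 4 of 7, and none was in a single-condition class. No marker of any of these cell types was KOLPS only. Over all promoters 56.6% were shared, 1.76% were WTLPS only and 0.932% were KOLPS only. At the last share, finding none among so few markers says nothing about them. The part of these cells in the WTLPS-only class was not tested.

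The classes were then compared with cells that had received no LPS, whose lists the grouping did not use. H3K4me3 lay at 58% of all promoters in WT and 58.5% in KO, and at 58.3% in WTLPS and 57.5% in KOLPS. Of the 367 WTLPS-only promoters, 246 (67%, 62.1 to 71.6%) had an H3K4me3 peak in unstimulated WT and 174 (47.4%, 42.4 to 52.5%) in unstimulated KO, a difference of −19.6 points (−25.7 to −13.5). Of the 194 KOLPS-only promoters, 51 (26.3%, 20.6 to 32.9%) had a peak in WT and 141 (72.7%, 66 to 78.5%) in KO, a difference of 46.4 points (38.7 to 54.1). Where only 1 unstimulated genotype had a peak, it was the same genotype as after LPS at 108 of 144 WTLPS-only promoters (75%, 67.3 to 81.4%) and at 95 of 100 KOLPS-only promoters (95%, 88.8 to 97.8%). Among all promoters with a peak in 1 unstimulated genotype, 39.5% had it in WT and 60.5% in KO. Without LPS, 138 WTLPS-only promoters had a peak in both genotypes, and 85 of them had one in neither. The corresponding numbers were 46 and 48 for KOLPS only. In the shared class 11611 promoters (98.6%) had a peak in both genotypes without LPS.

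**Figure D1:**
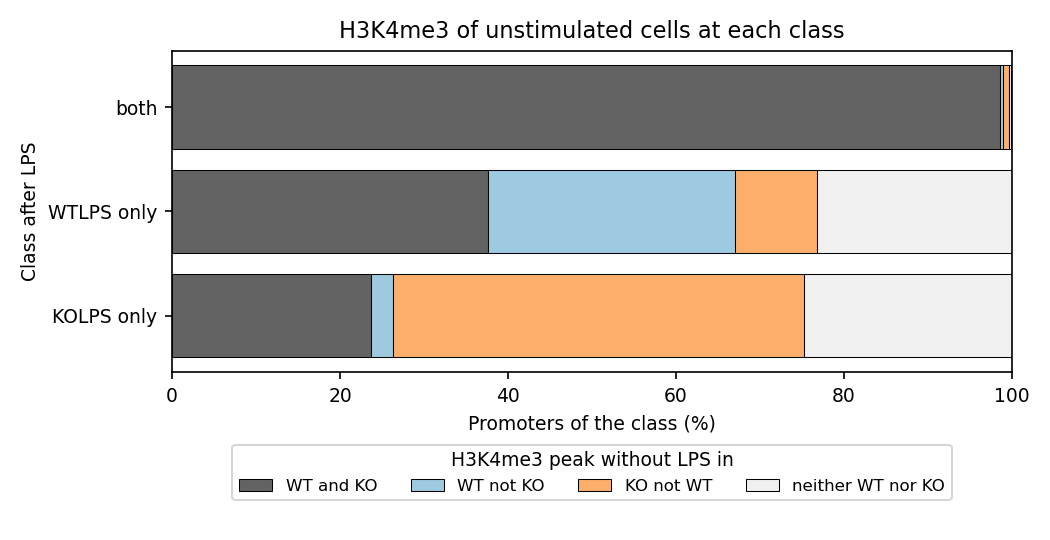
Share of promoters in each class after LPS (y axis) that had an H3K4me3 peak in unstimulated WT and KO cells, WT alone, KO alone or neither (stacked, in percent of the class on the x axis). The bar for both is almost wholly WT and KO (98.6%), the WTLPS-only bar holds 29.4% WT alone, and the KOLPS-only bar holds 49% KO alone.

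Single-condition peaks were much weaker and narrower than shared ones. MACS2 gives each peak a q value, a p-value corrected for the number of positions tested, written as −log10 q. In the WTLPS list the strongest promoter peak had a median −log10 q of 5.99 at WTLPS-only promoters and 80.6 at shared promoters, and a median width of 467 bp against 2653 bp. In the KOLPS list the medians were 4.41 and 46.2 for −log10 q and 397 and 2468 bp for width. These values describe the classes and are no test, because a weak peak is more easily missed in the other list. The deposited fold and p-value together gave back the number of fragments stacked at the summit for weak peaks. At WTLPS-only promoters the median summit held 10 fragments over a background of 1.154 per base, and at KOLPS-only promoters it held 9 over 1.127. A WTLPS-only peak of −log10 q of at least 10 was present at 77 promoters (21%), and a KOLPS-only one at 17 (8.76%).

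The strongest members of both classes differed between the lists in extent rather than in presence. At 24 WTLPS-only and 17 KOLPS-only promoters the peak that reached into the promoter overlapped a peak of the other list lying beyond the 2.5 kb border. These made up 14 of the 15 strongest WTLPS-only promoters, led by Eid3, Lgals8, Rhbdf2, Apom, Cpt1b, Pgd, Sirt3 and Zcchc7, and 11 of the 15 strongest KOLPS-only ones, led by Atg3, Cep63, Ckmt1, Bcl9l and Homez. At Eid3, for example, the summit of the WTLPS peak (fold 49.67) lay at −6653 bp from the start site, that is upstream, with the peak reaching into the promoter. For the remaining 343 WTLPS-only promoters −log10 q ran from 1.35 to 35.8, and for the remaining 177 KOLPS-only promoters from 1.6 to 28.7. Of all members, 303 and 161 had no peak of the other list within 5 kb of the start site.

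**Figure D2:**
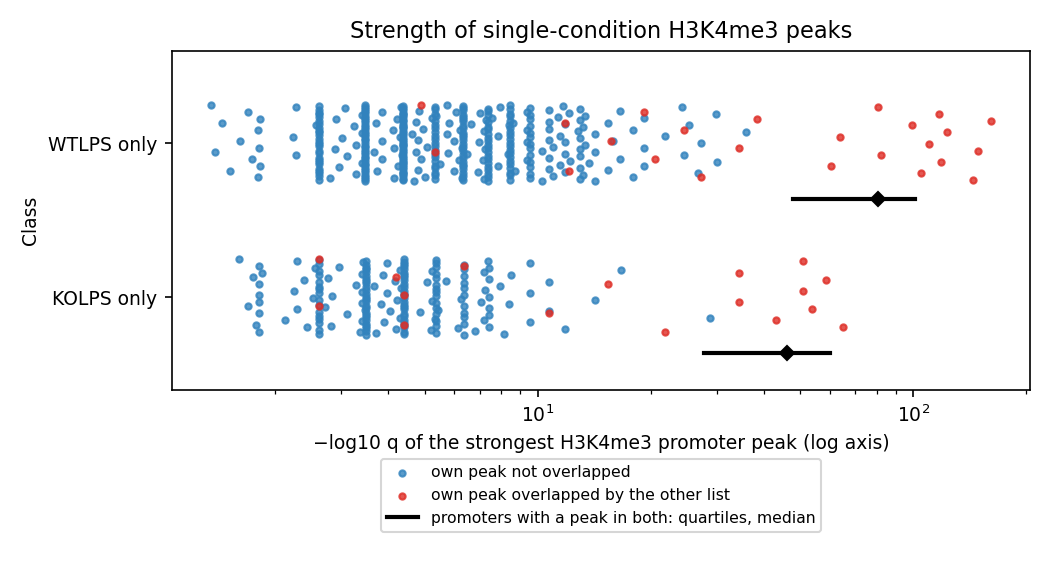
Strength of the strongest H3K4me3 promoter peak (−log10 q, log axis) at each WTLPS-only and KOLPS-only promoter, 1 point per promoter, in red where a peak of the other list overlapped it beyond the promoter border. Black lines span the quartiles of shared promoters in the same list with a diamond at the median (80.6 for WTLPS and 46.2 for KOLPS), and most blue points lie below 10.

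Depth was close between the 2 H3K4me3 lists after LPS. The recovered background of 1.154 fragments per base in WTLPS was 1.02 times that of KOLPS, and the weakest peaks of the 2 lists had −log10 p of 3.21 and 3.23. For H3K27ac the background was 1.198 in WTLPS and 0.801 in KOLPS, and for CTCF 3.533 and 2.821. For SMC1 it was 5.765 and 4.495, and for p65 0.855 and 0.817. The part of these depths in the shares of these marks below was not tested. The enrichment of H3K4me3 was not equal. Over shared promoters the median fold over background was 29.2 in WTLPS and 19.7 in KOLPS, against 29.1 in WT and 26.8 in KO at those of the same promoters with a peak. When WTLPS peaks were weakened to the KOLPS fold level, 323 of the 367 promoters remained WTLPS only and the KOLPS-only number rose from 194 to 243. Fold values are therefore given side by side below for reading and were not compared across lists.

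CTCF peaks were found at 30.6% (WT) and 28.3% (WTLPS) of all promoters in CTCF-WT cells, and at 20% (KO) and 10.7% (KOLPS) in CTCF-KO cells. CTCF peaks were thus still called in both KO lists, where the paper reports binding as lost or strongly reduced. In WTLPS, CTCF lay at 33.8% of WTLPS-only promoters (29.1 to 38.8%), 21.6% of KOLPS-only promoters (16.4 to 28%), 39.3% of shared promoters (38.5 to 40.2%) and 12.8% of promoters with neither (12.1 to 13.5%). The WTLPS-only share differed from the shared class by −5.56 points (−10.3 to −0.498), a difference that changed sign with 1 kb promoters (1.14 points). The KOLPS-only share differed from the shared class by −17.7 points (−23 to −11.3). In KOLPS the shares fell to 7.36% (27 of 367), 5.15% (10 of 194) and 16.8% (1976 of 11772). Of the CTCF-bound promoters in WTLPS, 79% (98 of 124) of WTLPS only, 76.2% (32 of 42) of KOLPS only and 67.9% (3144 of 4632) of shared promoters had no CTCF peak in KOLPS, compared with 70.8% of all CTCF-bound promoters. Over all promoters, 20% had CTCF in WTLPS and not KOLPS and 2.39% the reverse. An absent KOLPS CTCF peak was thus frequent in every class, the one that gained an H3K4me3 peak included. Without LPS fewer were absent. Of promoters with CTCF in WT, 70.1% of WTLPS only, 56.5% of KOLPS only and 50.7% of shared ones had no KO peak. Of all promoters with CTCF in KO, 49% had none in KOLPS. The corresponding share from WT to WTLPS was 13.7%. The part of the KOLPS list itself in the absent peaks was not tested.

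**Figure D3:**
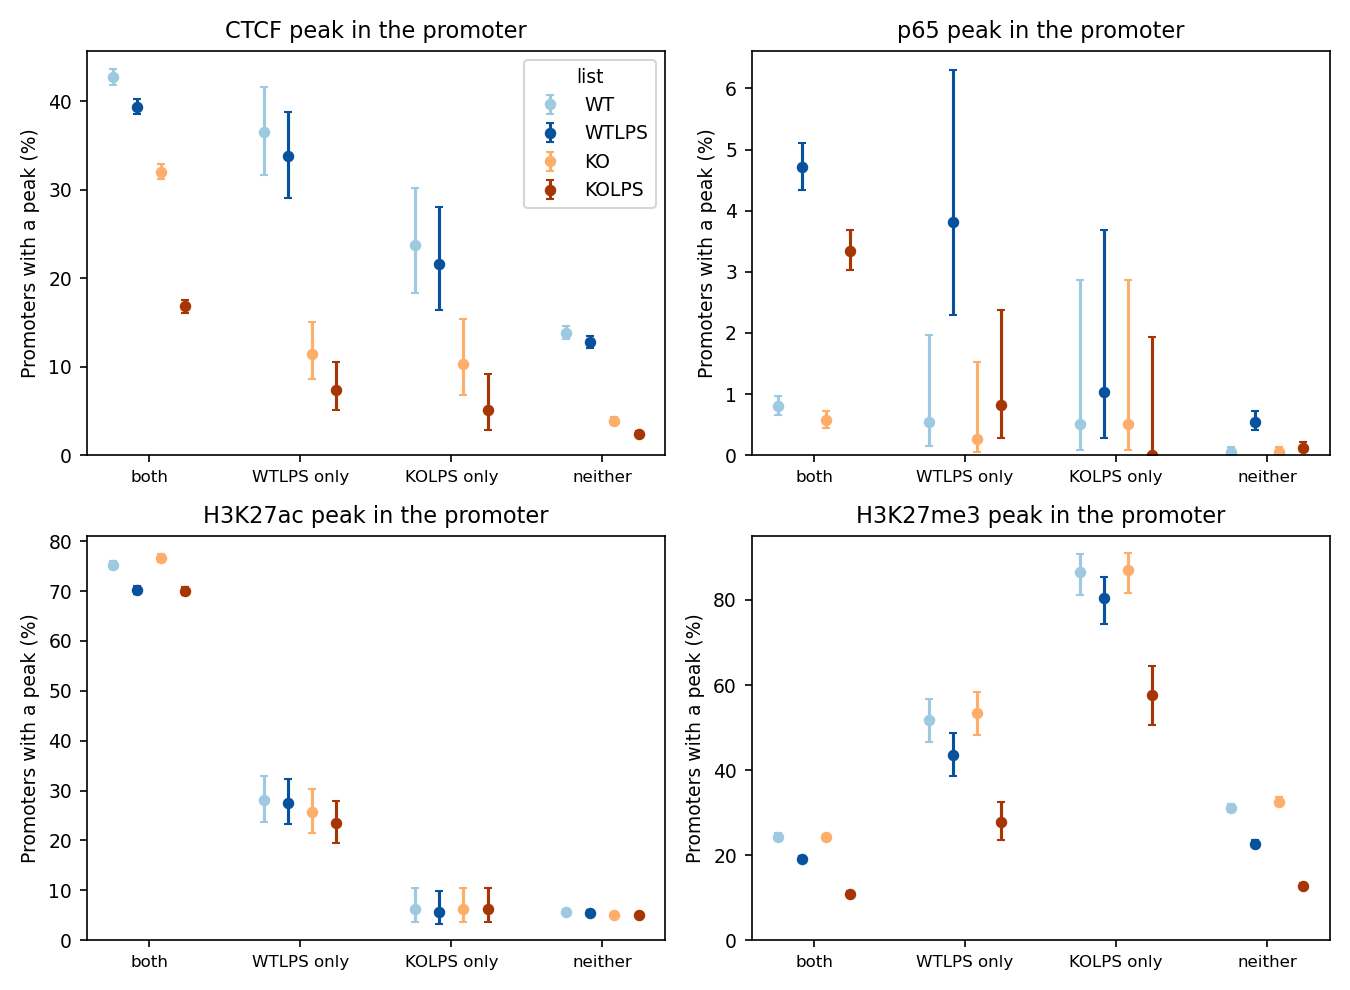
Percent of promoters with a CTCF, p65, H3K27ac or H3K27me3 peak (y axis of each panel, scales differ) in each H3K4me3 class (x axis), for the 4 lists of that antibody (colours), with 95% Wilson intervals. CTCF is lower in KO and KOLPS in all 4 classes, H3K27ac separates shared promoters from the rest, and H3K27me3 is highest at KOLPS-only promoters.

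Whether H3K4me3 was missing in KOLPS was next set against what happened to CTCF at the same promoter. Of WTLPS H3K4me3 promoters whose CTCF peak was absent in KOLPS, 3.02% (98 of 3242, 2.49 to 3.67%) had no H3K4me3 peak in KOLPS. The value was 1.72% (26 of 1514, 1.17 to 2.5%) where the CTCF peak was in both lists and 3.51% (242 of 6894, 3.1 to 3.97%) where neither had one. The difference between lost and no CTCF was −0.487 points (−1.19 to 0.278), and between lost and kept CTCF 1.31 points (0.353 to 2.15). These shares moved with the strength of the H3K4me3 peak. Among the weakest 5% of WTLPS H3K4me3 promoters the shares were 38.7% (lost), 42.9% (kept) and 34.3% (none), and in the strongest 50% they were 0.0641%, 0.209% and 0.259%. In the 5 to 10% stratum, lost CTCF (20.8%, 32 of 154) stood above no CTCF (9.48%, 38 of 401) by 11.3 points (4.77 to 18.8) but differed from kept CTCF (21.4%, 6 of 28) by −0.649 points (−19.6 to 12.6). In the weakest 5% the interval of lost minus kept, −22.1 to 12.9 points, also included 0. Of the promoters with no WTLPS H3K4me3 peak, 3.47% (32 of 921) with lost CTCF and 2.02% (152 of 7533) with none had a KOLPS peak, a difference of 1.46 points (0.397 to 2.88).

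**Figure D4:**
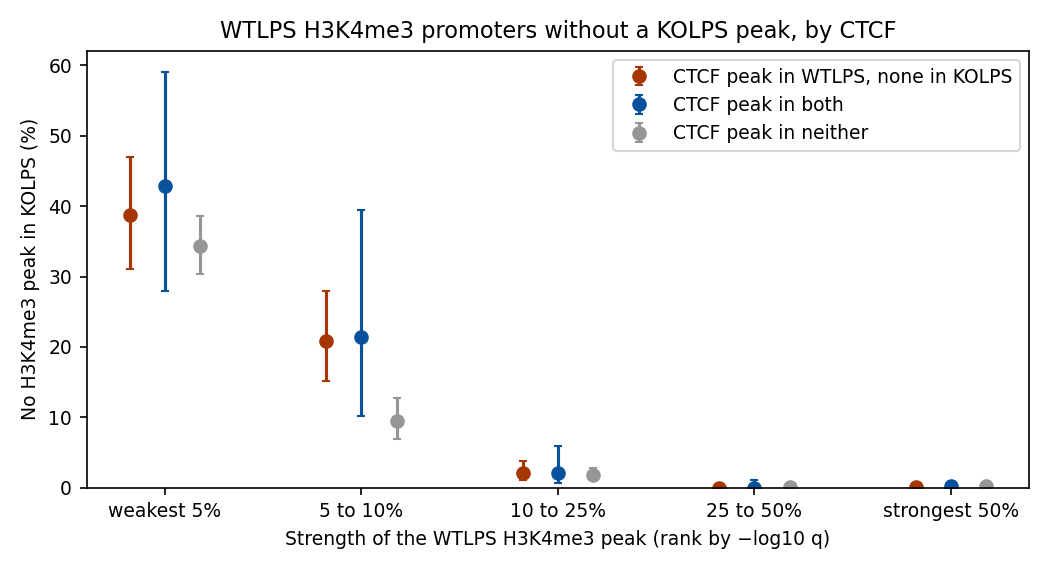
Percent of WTLPS H3K4me3 promoters with no KOLPS H3K4me3 peak (y axis) by the rank of the WTLPS peak's −log10 q (x axis), for promoters whose CTCF peak was in WTLPS alone, in both or in neither, with 95% Wilson intervals. All 3 kinds fall from 34.3 to 42.9% in the weakest 5% to under 0.3% in the strongest 50%.

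A further group was seen when all 4 H3K4me3 and all 4 CTCF lists were read together. At 108 promoters H3K4me3 was in WT and WTLPS and absent from KO and KOLPS, and 36 of them (33.3%, 25.2 to 42.7%) had CTCF in WT and WTLPS and in neither KO list. That pattern of CTCF was seen at 17% of shared promoters (16.3 to 17.7%) and 13.4% of all promoters. Over the whole WTLPS-only class, which contains these 108, it was seen at 21.3% (17.4 to 25.7%), with an overlapping interval. Shared promoters had stronger H3K4me3 peaks, and the part of strength in this difference was not tested. Spef2, a sperm flagellar protein gene, was one. Its H3K4me3 fold was 7.1 in WT and 11.6 in WTLPS (24 fragments at the summit) with no peak in KO or KOLPS, and its CTCF fold was 12.45 in WT and 10.59 in WTLPS with no peak in KO or KOLPS. Hoxd12, a homeobox gene of limb and body patterning, had H3K4me3 folds of 8.07 and 9.28 and CTCF folds of 7.39 and 6.18 in the same lists, with H3K27me3 in all 4. The opposite group, with H3K4me3 in KO and KOLPS alone, held 95 promoters, of which 11 (11.6%, 6.59 to 19.6%) had CTCF in WT and WTLPS alone. It included Kcnq3, a neuronal potassium channel gene with H3K4me3 folds of 5.45 in KO and 7.52 in KOLPS and CTCF folds of 10.76 in WT and 9.27 in WTLPS.

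A CTCF core motif of 12 positions, 4 of them open to any base, was searched on both strands, and its matched letters are the capitals in the sites below. It was present in the 1 kb around the start site at 8.17% of WTLPS-only, 8.76% of KOLPS-only, 7.92% of shared and 7.11% of all promoters. Within 100 bp of the WTLPS CTCF summit it was found at 45 of 120 WTLPS-only and 17 of 38 KOLPS-only promoters whose peak was searched, against 32.3% (31 to 33.7%) of shared and 33.9% (32.7 to 35.1%) of all promoters with a CTCF peak. The member shares were 37.5% (29.4 to 46.4%) and 44.7% (30.1 to 60.3%), and their intervals include that of all promoters. Several of these 52-base sites are shown because CTCF was called there in WTLPS and not in KOLPS while H3K4me3 went either way. All lie in GRCm38 outside annotated genes and are written 5′ to 3′ on the strand of the motif, which is in capitals. The sites of Spef2 (chr15:9748938-9748989, − strand) and Hoxd12 (chr2:74673158-74673209, − strand) belong to WTLPS-only promoters, and those of Tescl (chr7:24336087-24336138, + strand) and Smoc1 (chr12:81025186-81025237, + strand) to KOLPS-only promoters.
Spef2: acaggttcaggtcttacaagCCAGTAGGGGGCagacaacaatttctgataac
Hoxd12: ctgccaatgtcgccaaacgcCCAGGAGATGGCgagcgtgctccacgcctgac
Tescl: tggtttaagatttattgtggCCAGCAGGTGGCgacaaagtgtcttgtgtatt
Smoc1: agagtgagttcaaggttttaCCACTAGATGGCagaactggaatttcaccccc
A set of similar sites was found among the 62. With the site of Ifitm1 (chr7:140966783-140966834, + strand), an interferon-induced transmembrane protein gene, 9 sites, itself included, shared at least 75% of their bases. The sites of Siglece (chr7:43662619-43662670, + strand), an inhibitory sialic acid receptor gene, and Tex45 (chr8:3469008-3469059, + strand) each matched it at 45 of 52 bases. Repeats were not annotated here.
Ifitm1: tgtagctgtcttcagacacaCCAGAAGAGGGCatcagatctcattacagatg
Siglece: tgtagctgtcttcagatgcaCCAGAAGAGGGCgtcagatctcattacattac
Tex45: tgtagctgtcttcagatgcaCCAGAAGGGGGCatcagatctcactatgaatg
These sites occurred in both classes, with 6 at WTLPS-only and 3 at KOLPS-only promoters, and the other 8 shared between 82.7 and 92.3% of their bases with that of Ifitm1. Reads from similar sequences can be placed at the wrong copy.

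Ifitm1 had H3K4me3 folds of 8.96 in WT and 7.56 in WTLPS with none in either KO list, and CTCF folds of 5.07 and 4.85 in the same lists. Among the 10 WTLPS-only promoters with the strongest lost CTCF peak were Art4 (WTLPS CTCF fold 22.72), Gbx1 (22.06), Plxna2 (21.18), C1qtnf6 (13.92), Pcdhgb6 (14.56), Lamb3 (14.49), Hsd3b7 (13.72) and Il17rc (13.04). Gbx1, a homeobox gene, and Plxna2, a semaphorin receptor gene, kept H3K4me3 in unstimulated KO (folds 4.09 and 5), whereas Art4 and Hsd3b7, an enzyme of bile acid synthesis, did not. Hsd3b7 had H3K4me3 folds of 11.94 in WT and 8.34 in WTLPS. The corresponding KOLPS-only promoters were led by Hapln1, a cartilage link protein gene whose CTCF fold was 46.64 in WT, 36.62 in WTLPS and 4.81 in KO. Foxc2, a forkhead regulator of vessel and mesoderm development, had CTCF folds of 27.23, 20.96 and 12.66 in these lists, no CTCF peak in KOLPS, and H3K4me3 in KO (5.76) and KOLPS (6.11) alone. Tfap2b (19.63 in WTLPS), Tex45 (17.91), Adamts14 (17.87), Kcnc4 (17.65), Col12a1 (16.11), Tescl (15.66), Pcdh1 (13.38) and Hoxb6 (14.12) followed.

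p65 peaks were found at 0.49% (WT) and 0.356% (KO) of all promoters without LPS and at 2.96% (WTLPS) and 1.95% (KOLPS) with it, and they were rare in both single-condition classes. In WTLPS, p65 lay at 3.81% of WTLPS-only promoters (14 of 367, 2.29 to 6.3%), 1.03% of KOLPS-only promoters (2 of 194, 0.283 to 3.68%) and 4.71% of shared promoters (554 of 11772, 4.34 to 5.1%). The WTLPS-only class differed from the shared class by −0.891 points (−2.47 to 1.62), within counting error. In KOLPS, p65 lay at 3 WTLPS-only promoters (0.817%), at no KOLPS-only promoter (0 of 194, upper limit 1.94%) and at 3.34% of shared promoters (393). Over all promoters 2.03% had p65 in WTLPS and not KOLPS, and 1.02% had the reverse. The p65 lists had different floors, with a lowest −log10 p of 4.35 in WTLPS and 5.39 in KOLPS. With both at the higher floor the same 12 WTLPS-only promoters still had p65 in WTLPS alone, and 359 of the 371 shared ones did.

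Several of the WTLPS-only promoters with p65 belong to cytokine and chemokine genes. Il18, an interleukin activated by the inflammasome, had H3K4me3 folds of 7.62 in WT, 10.68 in WTLPS (22 fragments) and 5 in KO with no peak in KOLPS, and a p65 peak (7.01) in WTLPS alone. Bco2, the carotenoid oxygenase gene beside it, shares this promoter and both peaks. Il1rn, the interleukin-1 receptor antagonist, had H3K4me3 in WTLPS alone (6.03, 12 fragments) and p65 in WTLPS alone (5.39). Cxcl9, a chemokine induced by interferon gamma, also had H3K4me3 (3.71, 7 fragments) and p65 (8.08) in WTLPS alone, and it was the one of these with H3K27ac in WT and WTLPS but in neither KO list. Of the 15 WTLPS-only promoters with p65 after LPS, 7 had no H3K4me3 without LPS in either genotype.

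Saa3, an acute-phase apolipoprotein, combined a p65 fold of 26.95 in WTLPS alone with CTCF in all 4 lists (16.83, 10.79, 6.03 and 5.56 in WT, WTLPS, KO and KOLPS) and H3K27ac after LPS in both genotypes. Marco, a scavenger receptor (p65 17.79), Serpinb2, a plasminogen activator inhibitor (11.32), Vnn3, a pantetheinase family member (8.62), and Il20rb, a cytokine receptor chain (8.08), had p65 in WTLPS alone as well, with Rnase10, Olfr110 and Bex6. At F7, the coagulation factor VII gene, p65 was in all 4 lists (9.34, 20.48, 7.49 and 12.11 in WT, WTLPS, KO and KOLPS), while H3K4me3 folds were 11.04, 12.4 and 3.63 with no KOLPS peak. Fcrlb kept its p65 peak in KOLPS (9.91), and Dhrs9, a retinol dehydrogenase, had one in KOLPS alone (6.05). All 15 had H3K27ac in WTLPS and 13 of them in KOLPS too, so an absent H3K4me3 peak did not go with an absent H3K27ac peak at most of them. A κB motif of 10 positions, 1 of them open to any base, was searched on both strands. None of the 14 WTLPS p65 peaks of this class held a match within 100 bp of the summit (upper limit 21.5%). The share was 5.32% (32 of 601, 3.8 to 7.42%) over all promoters with a p65 peak, so 14 peaks are too few to show a difference. The motif was present in 1.09% of WTLPS-only, 2.06% of KOLPS-only and 1.17% of all promoters in the 1 kb around the start.

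At KOLPS-only promoters p65 was limited to Slamf8 and Acot7, both in WTLPS and not in KOLPS. Slamf8, a myeloid surface receptor, had H3K4me3 folds of 4.03 in WT, 6.81 in KO and 5.64 in KOLPS, and a p65 peak in KO too (4.69). Both p65 peaks of this class held the motif within 100 bp of the WTLPS summit, too few to compare with the share over all promoters. Acot7, an acyl-CoA thioesterase, had p65 in WT (5.71) and WTLPS (5.93), CTCF in the same lists (13.09 and 11.25), and H3K4me3 in the other 3 lists (4.93 in WT, 5 in KO and 4.7 in KOLPS). Its p65 site, in an Acot7 intron (chr4:152185651-152185700, + strand, GRCm38), is shown with the motif in capitals because its centre lay 6 bp from the p65 summit.
Acot7: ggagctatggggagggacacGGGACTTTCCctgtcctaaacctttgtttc

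H3K27ac was present at 45.5% (WT) and 45.9% (KO) of all promoters without LPS and at 42.6% (WTLPS) and 42.2% (KOLPS) with it, and it differed widely between the classes. In WTLPS it lay at 70.3% of shared promoters (69.5 to 71.1%), 27.5% of WTLPS-only (23.2 to 32.3%) and 5.67% of KOLPS-only promoters (3.2 to 9.87%). The last was close to the 5.52% of promoters without H3K4me3, but it depended on the overlap rule. With H3K4me3 summits required inside the promoter, KOLPS only held 244 promoters, and its H3K27ac share was 18.9% in WTLPS and 19.7% in KOLPS. WTLPS-only promoters differed from shared ones by −42.8 points (−47.2 to −37.9) and KOLPS-only promoters by −64.6 points (−67.3 to −60.4). Between the LPS lists H3K27ac changed by −4.09 points (−7.4 to −0.778) at WTLPS-only promoters, with a peak in both lists at 74, in WTLPS alone at 27 and in KOLPS alone at 12. Over all promoters 4.28% had H3K27ac in WTLPS alone and 3.86% in KOLPS alone. At KOLPS-only promoters the change was 0.515 points (−2.83 to 3.87), with 6 promoters in both lists, 5 in WTLPS alone and 6 in KOLPS alone. At shared promoters it was −0.212 points (−0.81 to 0.385). Elavl4, a neuronal RNA-binding protein gene, was the strongest KOLPS-only promoter whose peak no WTLPS peak overlapped. Its H3K4me3 folds were 16.81 in KO and 14.11 in KOLPS, and its H3K27ac folds were 8.07 and 9.44, with neither mark in WT or WTLPS.

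Since strength differed between the classes, shares were also read within strata of the same list. Among the weakest 5% of WTLPS H3K4me3 promoters (−log10 q up to 7.37), H3K27ac lay at 21.3% of WTLPS-only (52 of 244, 16.6 to 26.9%) but 6.39% of shared promoters (28 of 438, 4.46 to 9.08%). H3K27me3 ran the other way there, at 50.4% (44.2 to 56.6%) and 79.5% (75.4 to 83%). Among the weakest 5% of KOLPS promoters (−log10 q up to 6.37), H3K27ac lay at 3.82% of KOLPS-only (6 of 157, 1.76 to 8.09%) and 14.9% of shared promoters (82 of 551, 12.2 to 18.1%), and H3K27me3 of WTLPS at 84.1% (77.5 to 89%) and 67.9% (63.9 to 71.6%). In the 5 to 10% stratum of WTLPS, H3K27ac lay at 32.9% of WTLPS-only (23.4 to 44.1%) and 12.4% of shared promoters (9.83 to 15.6%), and H3K27me3 at 42.1% (31.6 to 53.3%) and 74.2% (70.2 to 77.8%). In the strongest 90% the order for H3K27ac was the other way, at 51.1% (24 of 47, 37.2 to 64.7%) and 75.6% (74.8 to 76.4%). In the 5 to 10% stratum of KOLPS, H3K27ac of that list lay at 15% of KOLPS-only (3 of 20, 5.24 to 36%) and 16.8% of shared promoters (13.7 to 20.5%), and H3K27me3 of WTLPS at 80% (58.4 to 91.9%) and 62.7% (58.2 to 66.9%), with overlapping intervals for both marks. Peaks of 1 stratum still differed in strength. CTCF of WTLPS lay at 28.7% (23.4 to 34.7%) of WTLPS-only and 24.4% (20.6 to 28.7%) of shared promoters in the weakest WTLPS stratum. Its shares in the 5 to 10% stratum were 50% (38 of 76, 39 to 61%) and 28.4% (144 of 507, 24.7 to 32.5%). For the strongest 90% the order was the other way with overlapping intervals, at 34% (16 of 47, 22.2 to 48.3%) and 40.5% (39.5 to 41.4%).

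H3K27me3 marked most KOLPS-only promoters. In WTLPS it lay at 80.4% of them (156 of 194, 74.3 to 85.4%), at 43.6% of WTLPS-only (160 of 367, 38.6 to 48.7%), at 19.2% of shared (18.5 to 19.9%) and at 21.6% of all promoters, where the other lists had 28.1% (WT), 28.7% (KO) and 12.4% (KOLPS). The shares were 86.6% and 51.8% for KOLPS only and WTLPS only in WT, and 87.1% and 53.4% in KO. In KOLPS they were 57.7% (50.7 to 64.5%) and 27.8% (23.5 to 32.6%). The fall from WTLPS to KOLPS was 22.7 points (16.6 to 28.7) at KOLPS-only and 15.8 points (11.7 to 19.9) at WTLPS-only promoters, and it was present in the shared class (8.23 points, 7.68 to 8.78) and over all promoters (9.15 points, 8.7 to 9.6). The KOLPS H3K27me3 list was the shortest of the 4 (26960 peaks against 65880 in WTLPS), and its weakest peak had a −log10 p of 3.47 against 3.03. At a common floor of 3.47 the KOLPS-only shares were 78.4% in WTLPS and 57.7% in KOLPS. Of promoters without a WTLPS H3K4me3 peak, a KOLPS peak was found at 7.52% (156 of 2074, 6.46 to 8.74%) with H3K27me3 in WTLPS and at 0.576% (38 of 6594, 0.42 to 0.79%) without it. Of promoters with a WTLPS H3K4me3 peak, none was found in KOLPS at 6.62% (160 of 2418, 5.69 to 7.68%) with H3K27me3 and at 2.13% (207 of 9721, 1.86 to 2.44%) without it.

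Named KOLPS-only promoters differed in which of the other lists held the mark. Bend5 (H3K4me3 folds 14.08 in KO and 9.87 in KOLPS), Bace2, a secretase family protease (8.63 and 8.93), Hivep3, a zinc finger protein gene (6.36 and 7.52), Prokr2, a prokineticin receptor (6.75 and 7.05), and Bmp4, a bone morphogenetic protein (8.42 and 6.03), had the mark in KO and KOLPS and in neither WT list, each with H3K27me3 in WTLPS. Of the 95 promoters with this pattern, 81 (85.3%, 76.8 to 91%) had H3K27me3 in WTLPS, 59 (62.1%) had it in all 4 lists, and 5 (5.26%) had H3K27ac in KOLPS. Counted by the symbols of 25 families of developmental regulators, a list chosen after the members were seen, 28 of 194 KOLPS-only promoters (14.4%), 14 of 367 WTLPS-only promoters (3.81%) and 1.07% of all promoters belonged to them. Olig2, a basic helix-loop-helix regulator of neural fate, is an example, with H3K4me3 folds of 3.63 in KO and 4.23 in KOLPS, where the summit held 8 fragments.

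Hox genes, the homeobox genes of body patterning, fell in both directions. Of 39 promoters, 12 had H3K4me3 in both lists, 5 in WTLPS only, 6 in KOLPS only and 16 in neither, so 11 of 39 were in a single-condition class, where the 2 classes together held 1.76% and 0.932% of all promoters. Hoxd12 and Hoxd13 had the mark in WT and WTLPS alone (Hoxd13 folds 4.03 and 4.18). Hoxa10 and Hoxd9 had it in WTLPS and KO, and Hoxb8 in WTLPS alone, at a peak that a KOLPS peak overlapped outside the promoter. Hoxa5 (4.54 and 4.23) and Hoxb6 (3.63 and 4.23) had it in KO and KOLPS alone, Hoxb9 and Hoxd11 in KOLPS alone, and Hoxa2 and Hoxd8 in WT, KO and KOLPS. At Hoxd8 CTCF was in all 4 lists (34.4, 22.94, 17.22 and 12.04 in WT, WTLPS, KO and KOLPS). All 6 KOLPS-only Hox peaks rested on 8 to 10 fragments. H3K27me3 was called at 36 of the 39 in WTLPS and 30 in KOLPS.

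**Figure D5:**
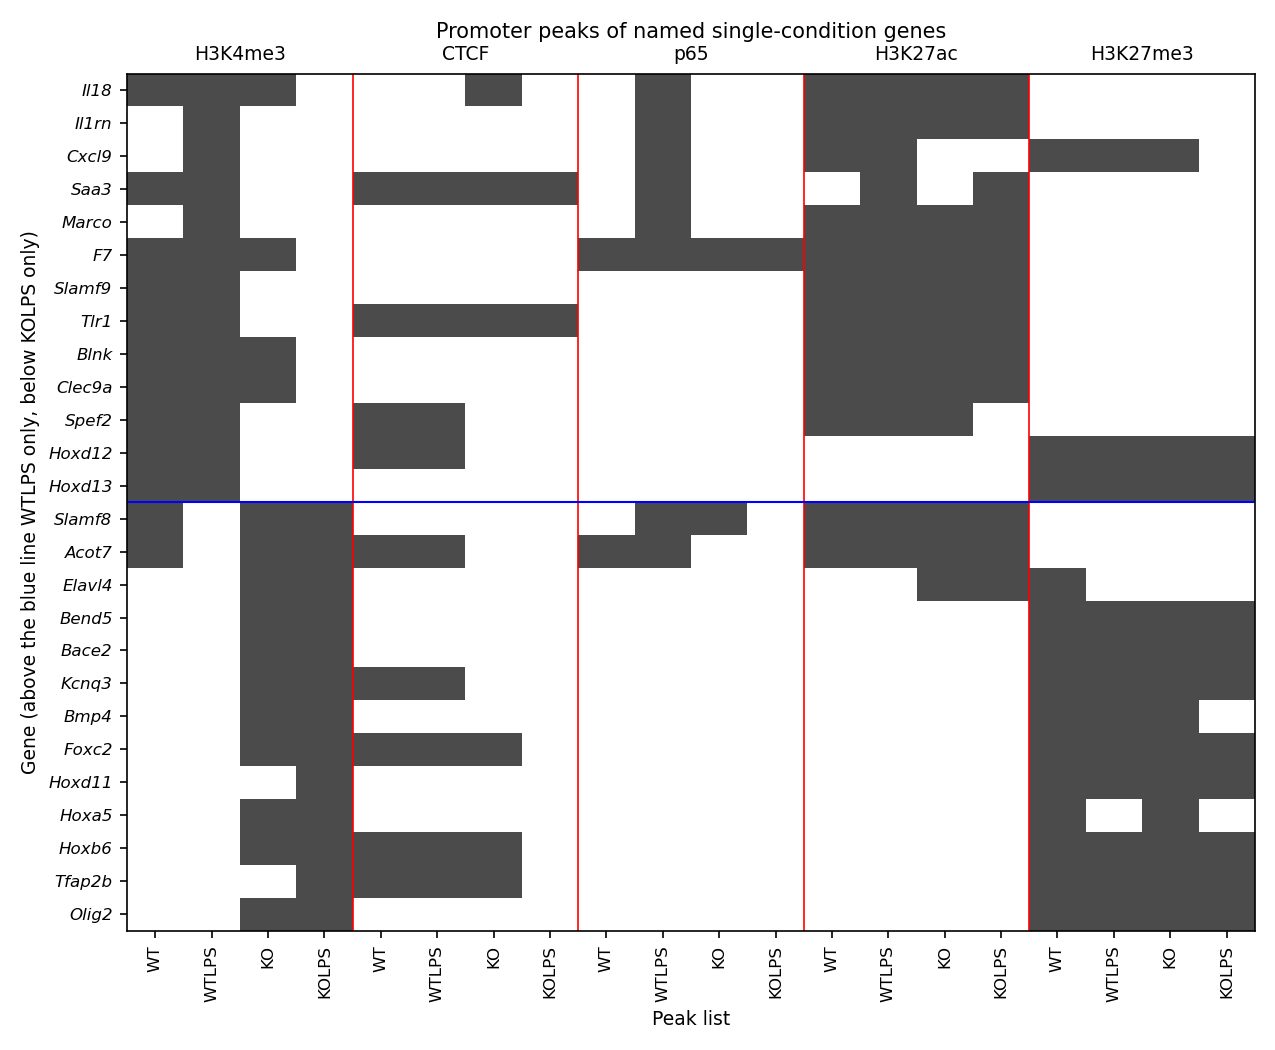
Presence (dark) or absence (white) of a promoter peak in each list (columns, 4 per antibody) for 26 named genes (rows), WTLPS only above the blue line and KOLPS only below. H3K27ac fills most rows of the upper block down to Clec9a, and H3K27me3 fills most of the lower block from Bend5 down.

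Genes of innate immunity other than those with p65 were also found among the WTLPS-only promoters. Tlr1, which pairs with TLR2 to sense bacterial lipopeptides, had H3K4me3 folds of 8.96 in WT and 12.33 in WTLPS with no peak in KO or KOLPS. CTCF lay at its promoter in all 4 lists (21.74, 16.77, 11.39 and 10.99 in WT, WTLPS, KO and KOLPS), as did H3K27ac (7.82, 11.38, 6.86 and 3.89). Slamf9, a myeloid surface receptor, was alike, with H3K4me3 folds of 16.13 and 13.46 in WT and WTLPS, H3K27ac in all 4 lists and no CTCF. Blnk, a B cell receptor adaptor, had the highest −log10 q (35.8) of the WTLPS-only promoters whose peak no KOLPS peak overlapped, with folds of 9.86, 16.25 and 5 in WT, WTLPS and KO. Nlrp1a, an inflammasome sensor (11.2, 10.68 and 7.27), Ifi27l2a, an interferon-induced gene (12.1, 10.92 and 5.91), and Clec9a, a receptor of cross-presenting dendritic cells (5.83, 6.5 and 4.09), also had the mark in unstimulated KO. Ptges, the prostaglandin E synthase gene, had it in WTLPS alone (4.71). The Gm13275, Gm13278, Gm13279 and Gm13285 promoters lie together on chromosome 4 and share peaks and near-identical neighbours, so their placement is uncertain. The WTLPS-only class held 354 distinct strongest peaks for 367 promoters, and the KOLPS-only class 194 for 194.

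At the other end, the weakest WTLPS-only members were Tctex1d4, Slc39a2, Slc8a2, Syt2 and Otos, with −log10 q of 1.61, 1.52, 1.44, 1.38 and 1.35, close to the list's lowest value of 1.35. The weakest KOLPS-only members were Unc79, Fam174b, Kcnc4, Znrf4 and Pitpnm3, with 1.81, 1.78, 1.74, 1.69 and 1.6. Their summits held 6 or 7 fragments.

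Lists of inflammatory genes were then read for H3K4me3 and p65 after LPS. Of 41 promoters of LPS-induced cytokines and chemokines, 26 had H3K4me3 in both lists, 3 in WTLPS only (Il18, Il1rn and Cxcl9), none in KOLPS only and 12 in neither, among them Il10, Csf2, Ccl2 and Ifnb1. Of 35 Toll-like receptor and NF-κB signalling promoters 32 were shared and 1 (Tlr1) was WTLPS only. In the list of 35 interferon-stimulated promoters every one was shared, while Ifi27l2a and Ifitm1, which are interferon-induced but not on that list, were WTLPS only. All 14 housekeeping and 30 of 32 cell cycle promoters on the lists were shared too. The shares over all promoters were 56.6% shared, 1.76% WTLPS only and 0.932% KOLPS only. With lists of this size, 1 or no member in a single-condition class therefore says little about the list. At the 26 shared cytokine and chemokine promoters p65 was in both lists at 9, in WTLPS alone at 10 and in KOLPS alone at 1, while H3K27ac was in both lists at all 26. At the 32 shared signalling promoters these p65 numbers were 9, 7 and 0. Over all shared promoters p65 was in both lists at 183, in WTLPS alone at 371 and in KOLPS alone at 210, so 67% of their WTLPS p65 promoters had none in KOLPS. On the lists the corresponding counts were 10 of 19 and 7 of 16.

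Acod1, the enzyme that makes itaconate, had the highest p65 fold (26.07 in WTLPS) among shared list members without a KOLPS p65 peak. Adgre1, the macrophage marker F4/80 (14.55), and Gbp5, a guanylate-binding protein (12.4), came next. Il12b, a subunit of interleukin-12, had the same pattern (10.78), with Cxcl3 (10.24), a neutrophil chemokine, and Ccl5 (9.7), a lymphocyte chemokine. Cd14, the LPS co-receptor (9.16), Myd88, the adaptor of Toll-like receptors (7.01), and Rela itself (7.55) were of this kind too. Among the shared members with p65 in both lists, Sod2, the mitochondrial superoxide dismutase, had folds of 87.85 in WTLPS and 41.83 in KOLPS, Tnf 33.42 and 13.76, Cxcl2 30.18 and 25.32, Il6 16.17 and 6.6, Il1b 13.47 and 6.05, and Nfkbia, the NF-κB inhibitor, 15.63 and 22.56. H3K27ac was called in WTLPS and not in KOLPS at 7 of the 184 shared promoters of the functional lists (Bub1, Ccne2, Ido1, Ifi44, Oas2, Plk1 and Tlr3) and the reverse at 4. Over all shared promoters these numbers were 657 and 632 of 11772.

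Within shared promoters, H3K4me3 strength was compared by rank, because fold differed between lists. Each promoter's percentile among the 11772 by −log10 q moved by a median of 7.89 points between WTLPS and KOLPS and by 7.84 points between WT and KO. A rise of 25 points or more was seen at 667 promoters and a fall of that size at 651. Each rank rests on the strongest single peak that overlapped the promoter, so where that peak's borders were called can move it. Shifts of that size either way numbered 1318 here, 1305 when ranked by fold and 906 when ranked by promoter bases covered. Of the 667, 454 also ranked higher in KO than in WT (median shift 8.31 points), and of the 651, 443 also ranked lower (−9.04 points). The share of all shared promoters that ranked higher or lower in KO was not computed, so these counts have no baseline. Over all shared promoters, rises and falls of 25 points or more from WT to KO were nearly equal in number, at 628 and 640. Spearman's rho of the percentiles, as a description across promoters of the same libraries, was 0.856 for WTLPS and KOLPS and 0.86 for WT and KO.

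The largest fall was that of Zbtb7b, a transcription factor known from CD4 T cell development, which went from the 98.1 percentile in WTLPS to 5.6 in KOLPS, with 99.8 in WT and 8.9 in KO. Its strongest promoter peak was 7405 bp wide in WTLPS and 277 bp in KOLPS. Tnfsf13, the cytokine APRIL, fell from 72.4 to 6.8 (73.2 in WT and 13.9 in KO) and lost its CTCF peak, as did Zdhhc18, Fgfbp3 and Pml. Msh5, Mafg and Rpl8 fell by as much after LPS but stood at 84, 88 and 61.1 in KO. Rbm45 and Dennd6b, which kept CTCF, completed the 10. The largest rises were Tspan13 (18 to 89.4), Dynlt1b (24.7 to 95.5), Amdhd2, Sema6d, Insl6, Aldh1a2, Yes1, Pcgf2, Bmi1 and Ssh1. Aldh1a2 encodes a retinaldehyde dehydrogenase of dendritic cells that makes retinoic acid. It rose from 16.9 to 78.9 after LPS and from 22.4 in WT to 79.5 in KO. Its promoter had CTCF in WTLPS and not in KOLPS, as did those of Tspan13, Dynlt1b, Insl6 and Yes1. Among all shared promoters with CTCF in WTLPS, 67.9% had none in KOLPS, so lost CTCF was not particular to the falls or the rises. Pcgf2 and Bmi1 both encode Polycomb ring finger proteins and reached the 97.9 and 91.8 percentiles in KOLPS from 37.3 and 33.3, while in KO they stood at 86.7 and 75.9 against 85.8 and 57.4 in WT. Amdhd2 went the other way without LPS, from 91.1 in WT to 23.4 in KO.

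CTCF and p65 shares differed little between promoters that rose and fell. CTCF of WTLPS lay at 42.4% of those that rose (38.7 to 46.2%), 45% of those that fell (41.2 to 48.8%) and 39.3% of all shared promoters, and p65 of WTLPS at 4.65% (3.29 to 6.52%) and 6.76% (5.07 to 8.95%). The widest shared WTLPS peak was at Zeb2, a transcription factor of myeloid cells (13733 bp, 3176 bp in KOLPS). Tnip1, an NF-κB inhibitor (11623 bp, 3114 bp in KOLPS), came next. The adjoining Hcst, Nfkbid and Tyrobp followed, sharing 1 peak of 11619 bp in WTLPS. These were chosen by their WTLPS width, and folds were lower in KOLPS. Their widths are therefore given for reading and were not compared between lists.

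SMC1 lay at 28.3% of all promoters in WTLPS and 14.6% in KOLPS. In WTLPS it lay at 38.7% of WTLPS-only (33.9 to 43.8%), 18% of KOLPS-only (13.3 to 24.1%) and 41.2% of shared promoters (40.3 to 42%), and in KOLPS at 9.81%, 3.09% and 23.9%. H3K4me1, a mark of enhancers and promoter flanks, lay in WTLPS at 57.2%, 33.5% and 87.9%, and in KOLPS at 41.4%, 22.7% and 73.9%, against 59.2% and 48.4% of all promoters. STAT5, profiled in cells restimulated with GM-CSF for 15 min, lay in WT at 5.45%, 3.09% and 6.3%, against 4.13% of all promoters.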

How the data were processed

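ChIP-seq peak lists of CTCF, SMC1, p65, STAT5, H3K27ac, H3K4me3, H3K27me3 and H3K4me1 were used as the authors deposited them. According to the methods, tagmented paired-end libraries were trimmed, aligned with BWA, cleared of duplicates with Picard and called with MACS2. The processing notes name mm10, BWA 0.7.12, Picard 1.77 and MACS2 2.1.2. The methods name 2 biological replicates per condition, but the labels do not say whether a list pools them. In MACS2's standard layout the deposited columns hold a score, a ratio (fold enrichment over local background), −log10 p and −log10 q, with a summit offset in the narrow lists and none in the broad ones (H3K27me3 and H3K4me1). Read counts were not used here, and neither was the score.

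Promoters came from GENCODE vM21 on GRCm38, with the start of the longest transcript by summed exon length and 2.5 kb on either side on chromosomes 1 to 19. Overlap needed 1 base. Shares have 95% Wilson intervals, differences between classes Newcombe intervals, and differences between lists over the same promoters paired intervals, all for counting error alone. Summit fragments k and background λ were solved from fold = (k + 1)/(λ + 1) and the Poisson p of more than k, for peaks of −log10 p below 25 with a tolerance of 0.002. Overlaps, intervals and this recovery were checked on simulated data. Depth was judged by λ, and no library sizes were used. Python 3.11.15, numpy 2.4.6, pandas 2.3.3, scipy 1.17.1 and matplotlib 3.10.9 were used. Motifs were searched in GRCm38, with chromosome 18 left out at the peak summits.

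No test with a p-value was made. The members and gene lists were chosen with earlier results of these data known. Genes were named by rule: for each single-condition class the 15 strongest, those with p65, the 10 with the strongest lost CTCF, list members and the 5 weakest, and for shared promoters the 10 largest rank rises and falls, the 5 widest and list members that lost p65 or H3K27ac, described by examples. Other named genes were chosen after their values were seen. A result for 1 further promoter is not reported here.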

Additional observations from a re-analysis of the deposited data

Results flagged for a closer look

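At 4 combinations of mark and class the difference between genotypes had opposite signs without and with LPS. These differences were not tested, each rests on 1 list per condition, and the part of list length in them was not tested. H3K27me3 at KOLPS-only promoters differed by 0.515 points (−2.16 to 3.19) for KO minus WT and by −22.7 points (−28.7 to −16.6) for KOLPS minus WTLPS. At WTLPS-only promoters these values were 1.63 (−1.9 to 5.17) and −15.8 points (−19.9 to −11.7). H3K4me1 at KOLPS-only promoters differed by 6.19 (0.0188 to 12.4) and −10.8 points (−16.6 to −5.05). H3K27ac at shared promoters differed by 1.32 (0.788 to 1.85) and −0.212 points (−0.81 to 0.385). For H3K27me3 without LPS and H3K27ac with LPS the interval included 0, so the sign there is within counting error. For H3K4me1 without LPS it came close to 0. The H3K27me3 and H3K4me1 lists of KOLPS were the shortest of their antibodies, with 26960 and 79120 peaks. Signs were opposite over all promoters as well for H3K27me3 (0.601 and −9.15 points) and for H3K27ac (0.433 and −0.418 points), and over promoters with H3K4me3 in neither LPS list for H3K27me3 (1.52 and −9.82 points). H3K4me1 over all promoters differed by −0.24 and −10.8 points.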

How the results depend on the processing

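No paired analysis was possible because each condition had 1 list per antibody and no result came from a test across replicates. Of 116 recomputed main values, 103 stayed within the interval of the value reported or, for counts, within 1.5 times. Some of the 103 had no room to move. Thinning the H3K4me3 lists to a common coverage, 1.02 times apart, changed no value. Settings that only drop single-condition promoters leave the shared count at 11772 by construction. The common floor for marks left the CTCF values as they were. With 1 kb promoters the CTCF difference of WTLPS-only from shared promoters changed sign, to 1.14 points. With all transcript starts the KOLPS-only differences from shared promoters became −24.6 points for CTCF, −5.88 for p65 and −67.7 for H3K27ac, and with H3K4me3 summits inside the promoter the last was −51.8. Requiring a −log10 q of at least 10 left 77 WTLPS-only and 17 KOLPS-only promoters. With mark peaks of −log10 q of at least 10, the KOLPS-only differences were −10.9 points for CTCF and −34 for H3K27ac, and the WTLPS-only difference for H3K27ac was −23.3. With marks counted inside the H3K4me3 peak, CTCF differed by −10.3 points at WTLPS-only and −25.4 at KOLPS-only promoters and p65 by −3.27 at WTLPS-only promoters. In each case the cause was not tested beyond the construction of the alternative. Weakening WTLPS folds, leaving out promoters whose own peak the other list overlaps, and equal floors for the marks and for H3K27me3 were chosen after seeing the data. With 1 list per condition the spread between cultures is unknown, peaks of 6 to 10 fragments are near the callers' threshold, and an absent peak does not show an absent mark.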
